A study of Mus musculus with 56 samples.

Results

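The 10 genes described here are targets of the transcription factor ATF4 in the integrated stress response: Asns, Trib3, Chac1, Ddit3, Sesn2, Psat1, Phgdh, Mthfd2, Aldh1l2 and Atf5. They were set against Atf4 itself. Each was found by its symbol in a count table of mouse liver RNA, as 10 of 21935 genes, and all 10 were among the 14105 genes that passed a filter on low counts.

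In the integrated stress response, kinases that sense amino acid shortage, unfolded protein in the endoplasmic reticulum, viral RNA or haem shortage phosphorylate the translation factor eIF2alpha. General translation then slows, while the Atf4 message is translated more, and the ATF4 protein switches on genes for amino acid synthesis, amino acid import, tRNA charging and one-carbon metabolism. ATF4 is controlled to a large extent at translation, so the level of its mRNA is not the level of the protein, which was not measured. In the liver the pathway is known from amino acid restriction and endoplasmic reticulum stress.

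The samples were livers of male C57BL/6J mice in 7 groups of 8, each dosed daily under the skin for 8 weeks after 36 weeks on its diet. A lean group ate chow and received vehicle. The other 6 groups ate the AMLN diet, rich in fat, fructose and cholesterol, and were entered into the study on biopsy-proven steatosis and fibrosis (DIO-MASH mice). They received vehicle, zalfermin, which is an FGF21 analog with a prolonged action, at a low dose of 0.05 mg/kg or a high dose of 0.2 mg/kg, semaglutide, which is an agonist of the GLP-1 receptor, at a low dose of 0.003 mg/kg or a high dose of 0.12 mg/kg, or both drugs together. Diet and disease were therefore shared by all treated mice and by the DIO-MASH vehicle mice, and the same 8 vehicle mice served as the reference of every treatment. The labels give no dose for the combination. The study's methods give the low dose of each drug, whereas the series' design text names both high doses, so comparisons of the combination with the low-dose groups are matched in dose only if the former holds. Fgf21 is itself a target of ATF4.

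Libraries held 5228187 to 20885786 reads assigned to genes (median 12206788). Levels are given as CPM, which are read counts scaled to a common library size after normalization across libraries, as the lowest, the median and the highest of 8 mice. Differences are log2 fold changes ± SE with 95% confidence intervals (CI), tested with edgeR's quasi-likelihood test over all 56 mice, and p-values were adjusted over all 14105 genes by the Benjamini-Hochberg method. A gene was called at an adjusted p under 0.05. Of the cell type marker lists, that of hepatocytes had the highest summed level in all libraries, at 63389.7 to 239364 CPM over 8 markers, as the liver label implies. This level differed between groups, as given below. The 2 libraries that stood farthest from their own group were chow mouse 8 and low-dose semaglutide mouse 6, with mean Spearman correlations of 0.947 and 0.967 against a median of 0.983 over all mice.

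Some of the 10 genes carry in their promoter the C/EBP-ATF response element, the DNA sequence that ATF4 binds together with a C/EBP partner. Windows of 250 bases before to 50 after the RefSeq start (GRCm38.p6) were available for 9 of the 10 genes and were searched on both strands for TGATGNAA, where N is any base. A match was found in 3 of the 11 windows of these 9 genes, against 3.97% of 32851 windows of all genes. The sequences are shown for these 3, each 5′ to 3′ on the gene's strand with the matching letters in capitals, because they are the genes whose window holds the letters, and the levels of the 3 can then be read side by side.
Asns: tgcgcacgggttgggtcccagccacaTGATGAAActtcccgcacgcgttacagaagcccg
Trib3: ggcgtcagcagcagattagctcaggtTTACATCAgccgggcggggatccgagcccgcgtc
Chac1: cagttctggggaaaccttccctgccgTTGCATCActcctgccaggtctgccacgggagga
The Asns stretch lies at chr6:7693199-7693258 on the minus strand, and its match starts 23 bases before the transcription start. The Trib3 stretch lies at chr2:152344013-152344072 on the minus strand, and its match starts 14 bases after the RefSeq start. The Chac1 stretch lies at chr2:119351023-119351082 on the plus strand, and its match starts 193 bases before the start. In Trib3 and Chac1 the match reads on the strand opposite to the gene, so the capitals are its reverse complement. The windows of Ddit3, Sesn2, Psat1, Phgdh, Mthfd2, Atf5 and Atf4 did not hold these letters.

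The genes lay far apart in abundance. In the DIO-MASH vehicle mice, the mean level per kilobase of exon was 167.3 CPM for Atf5 and 16.2 CPM for Atf4. It was between 2.56 and 3.68 CPM for Trib3, Sesn2, Chac1 and Ddit3, and between 0.380 and 0.895 CPM for Mthfd2, Psat1, Asns and Phgdh. Aldh1l2 was lowest at 0.0518 CPM per kilobase, and only 269 reads fell on it over all 56 libraries. In chow mice Asns stood at 2.57 CPM per kilobase. Group explained most of the variance of log2 CPM over the mice for Asns (62.3%), Psat1 (60.8%) and Atf4 (60.6%), and little of it for Aldh1l2 (6.63%) and Chac1 (4.36%).

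**Figure D1:**
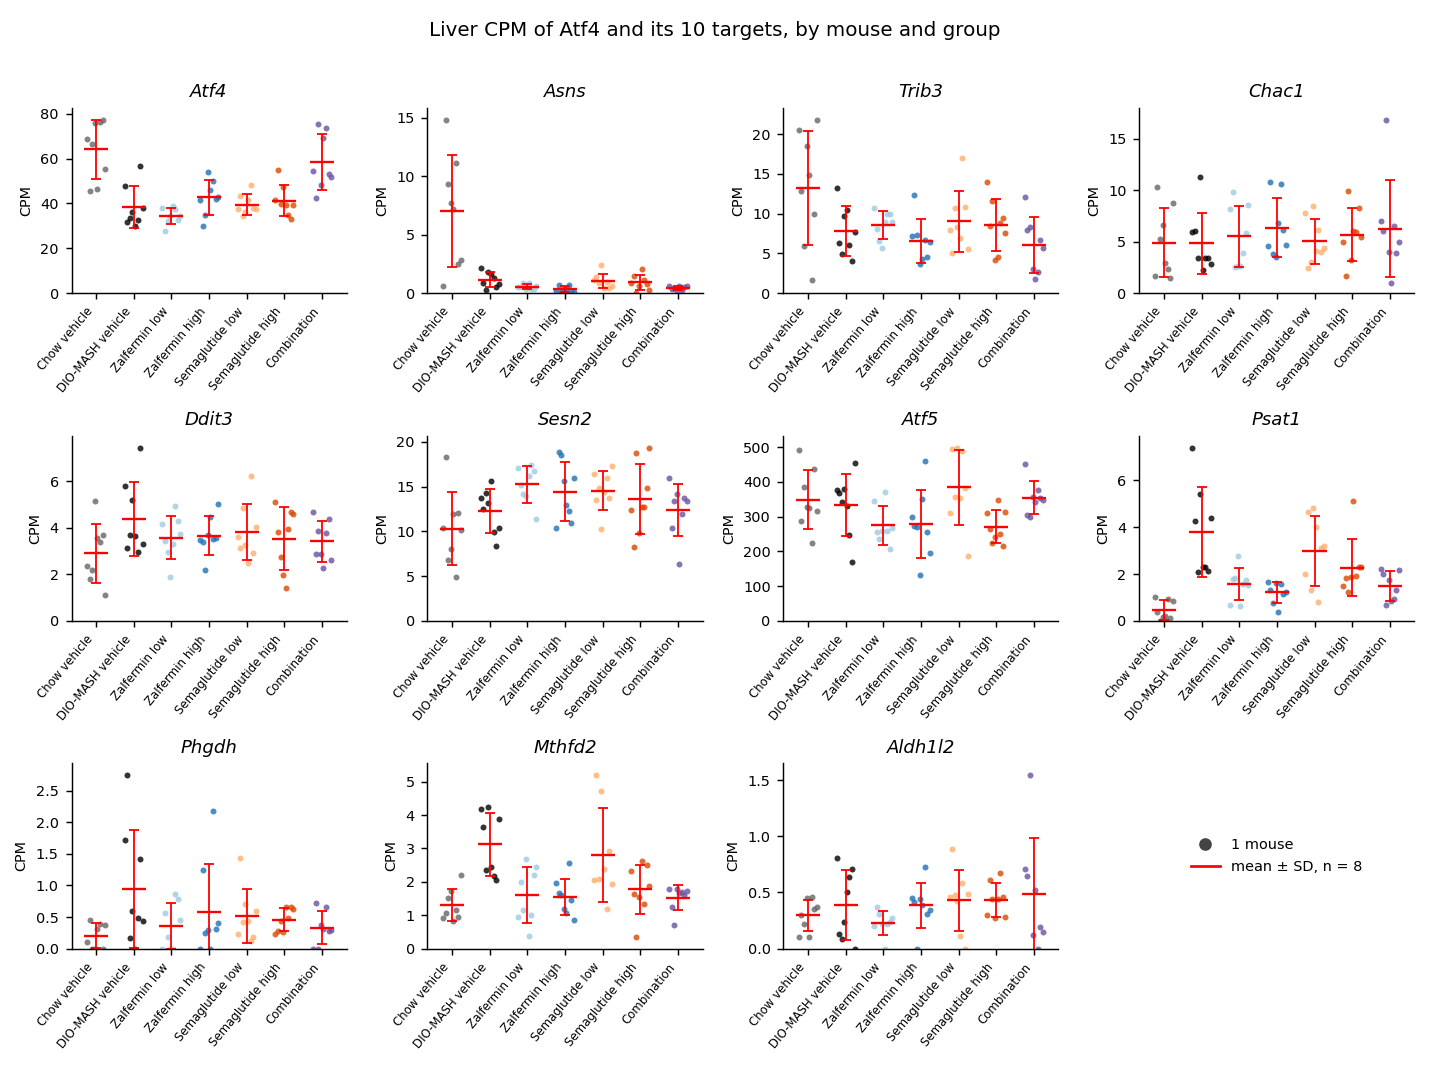
Levels of Atf4 and the 10 targets in each of the 56 mice, with the groups on the horizontal axis and CPM on the vertical axis, where points are mice and bars are means ± SD, drawn no lower than 0. Asns and Atf4 were highest in chow, Psat1 lay between 0 and 1.03 CPM in chow against 2.10 to 7.40 CPM in DIO-MASH vehicle mice, and Chac1 overlapped in all 7 groups.

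Atf4 mRNA was higher in lean mice than in DIO-MASH vehicle mice, and higher in the combination group than in DIO-MASH vehicle mice. It was found at 45.8, 67.6 and 77.3 CPM (lowest, median and highest) in chow mice, at 29.9, 34.8 and 56.8 CPM in DIO-MASH vehicle mice and at 42.4, 53.7 and 75.6 CPM in combination mice. The chow and combination mice lay mostly above the vehicle mice, with some overlap in both cases. Atf4 was thus 0.74 ± 0.13 higher on the log2 scale in chow (CI 0.48 to 1.0, 1.67-fold, adjusted p = 3.02e-06, edgeR). It was 0.61 ± 0.13 higher in the combination (CI 0.35 to 0.87, 1.52-fold, adjusted p = 0.000413, edgeR). Part of both differences comes from the normalization, in which a lower factor raises the CPM of every gene. The factors were 0.708 to 0.897 in chow, 0.905 to 1.03 in the combination and 1.08 to 1.20 in DIO-MASH vehicle mice. Atf4 had 4971, 5327 and 4170 reads in these groups, in libraries of 11932723, 12058204 and 11729855 reads on average. The size of this part was not tested. In the groups on 1 drug, Atf4 ranged from 27.9 to 38.9 CPM at low-dose zalfermin, from 30.1 to 54 CPM at high-dose zalfermin, from 34.2 to 48.2 CPM at low-dose semaglutide and from 32.8 to 54.8 CPM at high-dose semaglutide. All 4 overlapped the vehicle mice, and none was called.

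The combination also exceeded the single low doses in Atf4. Every combination mouse lay above every low-dose zalfermin mouse, a difference of 0.76 ± 0.13 (adjusted p = 0.000113, edgeR), where 6.62% of all genes were called and 0.943% did not overlap. Against low-dose semaglutide the difference was 0.57 ± 0.13 (adjusted p = 0.00459, edgeR), where 4.21% of genes were called, and these groups overlapped. Against high-dose zalfermin it was 0.46 with an adjusted p of 0.0820 (edgeR), which missed the threshold, in a comparison that called 0.503% of genes. The excess of the combination over the sum of the single low-dose effects was 0.72 ± 0.18 for Atf4. Its p was 0.000199 before adjustment and 0.215 after it (edgeR), so that it did not pass, and the same test called 0.0142% of genes. Against chow, the combination differed in Atf4 by -0.13 ± 0.13 (CI -0.39 to 0.12, adjusted p = 0.457, edgeR).

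The first of the targets by role are the enzymes of amino acid synthesis. Asns, which makes asparagine from aspartate and glutamine, was the target that stood higher in lean mice by the widest margin, and it was lower than in DIO-MASH vehicle mice after the combination and after high-dose zalfermin. Its level was 0.615, 7.46 and 14.8 CPM in chow and 0.252, 1.05 and 2.14 CPM in DIO-MASH vehicle mice. Of the 8 chow mice, 7 lay above all vehicle mice, and chow mouse 1 lay within their range. Asns was 2.61 ± 0.44 higher in chow on the log2 scale (CI 1.73 to 3.49, 6.11-fold, adjusted p = 1.69e-06, edgeR).

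In the combination group Asns was found at 0.186, 0.469 and 0.621 CPM, and at high-dose zalfermin at 0.0569, 0.269 and 0.729 CPM. Both groups lay in or below the lower part of the vehicle range and overlapped it. These levels rested on few reads, 39 in all in the combination and 25 at high-dose zalfermin. There were 123 in DIO-MASH vehicle mice and 590 in chow mice. Asns fell by 1.41 ± 0.51 in the combination (CI -2.44 to -0.38, adjusted p = 0.0425, edgeR) and by 1.85 ± 0.55 at high-dose zalfermin (CI -2.95 to -0.74, adjusted p = 0.0141, edgeR). The call in the combination was close to the threshold. It was lost without any of 4 vehicle mice (1, 4, 5 or 6) or 6 combination mice (1, 2, 3, 4, 6 or 7), with adjusted p-values of 0.0520 to 0.110 (edgeR). Over all mice left out in turn, the log2 fold changes were -1.55 to -1.18. At low-dose zalfermin Asns was at 0.316, 0.520 and 0.884 CPM, at low-dose semaglutide at 0.434, 0.919 and 2.38 CPM, and at high-dose semaglutide at 0, 0.845 and 2.08 CPM. None of these 3 groups was called. Between the combination and chow, which were both above DIO-MASH vehicle in Atf4, Asns was 4.02 ± 0.50 lower in the combination (log2 fold change -4.02, adjusted p = 1.93e-08, edgeR), in a comparison that called 32.4% of genes.

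Psat1 and Phgdh, which with phosphoserine phosphatase make serine from a glycolytic intermediate, were both lower in lean than in DIO-MASH vehicle mice, opposite to Atf4. Psat1 was at 0, 0.292 and 1.03 CPM in chow and at 2.10, 3.30 and 7.40 CPM in DIO-MASH vehicle mice, from 39 and 416 reads in all. The groups did not overlap, as was the case for 16% of all genes in this comparison, and 1 chow mouse had no read. Psat1 was 2.93 ± 0.40 lower in chow (log2 fold change -2.93, CI -3.74 to -2.12, adjusted p = 2.67e-08, edgeR).

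Psat1 was also lower after high-dose zalfermin and after the combination. At high-dose zalfermin it was found at 0.386, 1.29 and 1.66 CPM, so that all 8 mice lay below all vehicle mice, and 4.8% of all genes did not overlap there. It fell by 1.67 ± 0.36 (CI -2.39 to -0.94, adjusted p = 0.000648, edgeR). In the combination it was at 0.694, 1.53 and 2.20 CPM, overlapping the lowest 2 vehicle mice, and fell by 1.34 ± 0.35 (CI -2.04 to -0.64, adjusted p = 0.00414, edgeR). The level in the combination was still above that in chow, by 1.59 ± 0.42 (adjusted p = 0.0028, edgeR). Psat1 was at 0.632, 1.66 and 2.78 CPM at low-dose zalfermin, where its adjusted p of 0.0672 (edgeR) missed the threshold. It was at 0.821, 3.15 and 4.80 CPM at low-dose semaglutide and at 1.24, 1.9 and 5.14 CPM at high-dose semaglutide, neither of which was called.

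Phgdh, the first enzyme of the serine pathway, was close to the limit of detection, with 361 reads over the 56 libraries. It was at 0, 0.207 and 0.452 CPM in chow and at 0, 0.534 and 2.74 CPM in DIO-MASH vehicle mice, and 3 chow mice and 1 vehicle mouse had no read. The groups overlapped, and Phgdh was 2.09 ± 0.72 lower in chow (log2 fold change -2.09, adjusted p = 0.0115, edgeR). This call rested in part on DIO-MASH vehicle mouse 2, without which the log2 fold change was -1.64 and the adjusted p 0.0534 (edgeR). In the combination Phgdh was at 0, 0.3002 and 0.715 CPM, with an adjusted p of 0.0838 (edgeR).

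Mthfd2 and Aldh1l2 are enzymes of the mitochondrial folate pathway, which takes up the one-carbon units from serine. Mthfd2 was at 0.832, 1.10 and 2.22 CPM in chow and at 2.07, 3.05 and 4.23 CPM in DIO-MASH vehicle mice, with an overlap at the edge of the ranges. It was 1.28 ± 0.30 lower in chow (log2 fold change -1.28, CI -1.89 to -0.67, adjusted p = 0.000345, edgeR). In the combination it was at 0.694, 1.67 and 1.80 CPM, below all vehicle mice, in a comparison where 3.98% of all genes did not overlap. At high-dose zalfermin it was at 0.854, 1.52 and 2.55 CPM and overlapped the vehicle range. Mthfd2 fell by 1.04 ± 0.29 in the combination (CI -1.62 to -0.45, adjusted p = 0.0083, edgeR) and by 1.04 ± 0.30 at high-dose zalfermin (CI -1.63 to -0.44, adjusted p = 0.0102, edgeR). It was at 0.379, 1.58 and 2.67 CPM at low-dose zalfermin, at 1.17, 2.24 and 5.19 CPM at low-dose semaglutide and at 0.354, 1.75 and 2.63 CPM at high-dose semaglutide, with no call. Aldh1l2 ranged from 0 to 1.54 CPM over all mice with group medians of 0.230 to 0.469 CPM, and it was not called in any comparison. The interval of its difference from vehicle ran from -1.48 to 0.68 in chow and from -0.66 to 1.32 in the combination. In addition, 1056 bases (14.1%) of its exons lie opposite exons of D10Wsu102e.

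The remaining targets act in feedback, cell death and redox control. Trib3, a pseudokinase that binds ATF4 and dampens it, was at 1.61, 13.8 and 21.8 CPM in chow and at 4.07, 7.0 and 13.2 CPM in DIO-MASH vehicle mice. The chow mice spread beyond the range of the vehicle mice at both ends. Trib3 was 0.77 ± 0.32 higher in chow (CI 0.12 to 1.41, adjusted p = 0.0394, edgeR). The call was lost without any of 4 chow mice (1, 4, 5 or 8) or 4 vehicle mice (2, 3, 6 or 7), with adjusted p-values of 0.0568 to 0.0952 (edgeR). Over all mice left out in turn, the log2 fold changes were 0.63 to 0.94. In the treated groups the medians of Trib3 were between 6.15 and 8.93 CPM and none was called against vehicle. Against chow, Trib3 in the combination (1.76, 6.15 and 12.1 CPM) was lower by 1.12 ± 0.33 (log2 fold change -1.12, adjusted p = 0.00653, edgeR).

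Ddit3, also called CHOP, is a transcription factor of stress-induced cell death that ATF4 induces. It was at 1.11, 2.87 and 5.14 CPM in chow and at 2.96, 3.67 and 7.43 CPM in DIO-MASH vehicle mice, with overlap. It was 0.59 ± 0.24 lower in chow (log2 fold change -0.59, CI -1.07 to -0.11, adjusted p = 0.0335, edgeR). This call, too, was close to the threshold. It was lost without any of 4 chow mice (1, 2, 3 or 8) or 3 vehicle mice (1, 4 or 7), with adjusted p-values of 0.0565 to 0.133 (edgeR). Over all mice left out in turn, the log2 fold changes were -0.75 to -0.42. Ddit3 was not called in any other comparison. Its exons share 105 bases with a second gene model of the same name and 68 bases with Mars on the opposite strand, which makes its counts less certain.

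Chac1, which breaks down glutathione, Sesn2, a leucine sensor that restrains mTORC1, and Atf5, a transcription factor related to ATF4, were not called in any of the 6 comparisons with vehicle. Chac1 was at 1.42, 4.07 and 10.3 CPM in chow, at 2.20, 3.44 and 11.3 CPM in DIO-MASH vehicle mice and at 0.931, 5.46 and 16.8 CPM in the combination, and the interval of its difference from vehicle ran from -0.77 to 0.84 in chow and from -0.39 to 1.19 in the combination. Sesn2 was at 4.92, 10.2 and 18.3 CPM in chow, at 8.34, 12.8 and 15.6 CPM in DIO-MASH vehicle mice and at 6.31, 13.3 and 15.9 CPM in the combination, with intervals of -0.60 to 0.13 and -0.33 to 0.38. Atf5 ranged from 133.4 to 499 CPM with group medians of 256 to 369 CPM, and its intervals were -0.29 to 0.43 in chow and -0.27 to 0.45 in the combination.

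**Figure D2:**
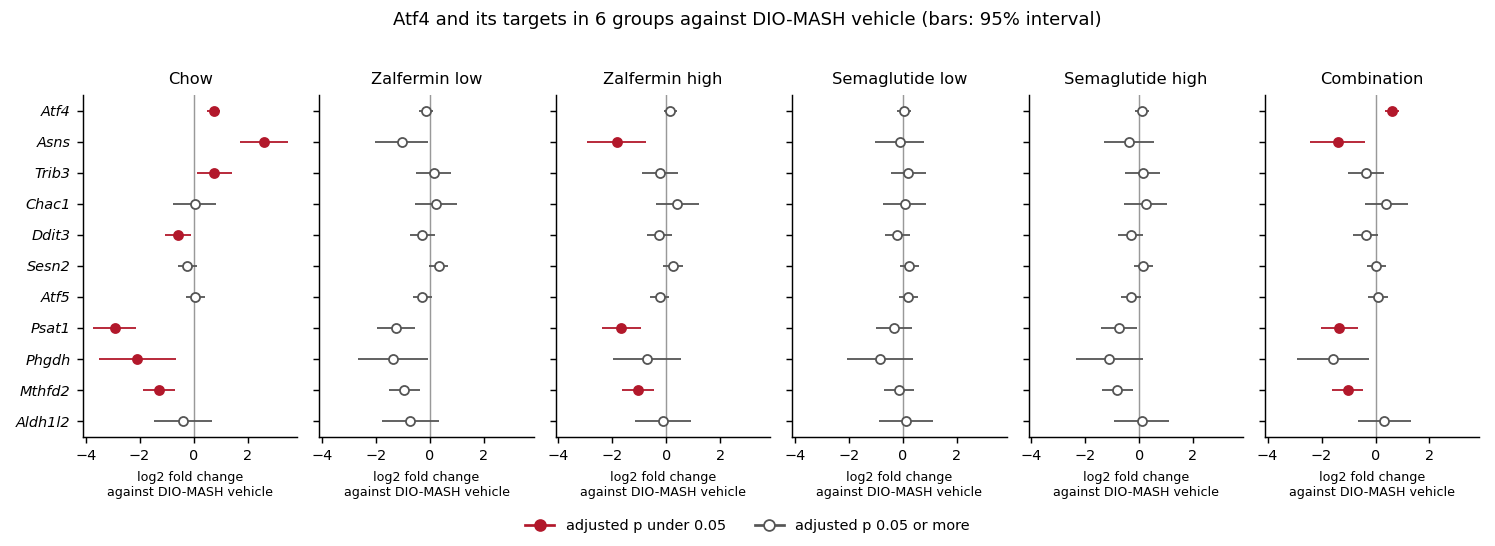
Log2 fold change of Atf4 and the 10 targets against DIO-MASH vehicle, with the 95% CI of edgeR's fit, for chow and the 5 treatments, where filled points passed an adjusted p of 0.05. Atf4 was called at 0.74 in chow and 0.61 in the combination, whereas Psat1 (-2.93, -1.34 and -1.67) and Mthfd2 (-1.28, -1.04 and -1.04) were called lower in chow, the combination and high-dose zalfermin.

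Counted over the 10 targets, 2 were higher (Asns and Trib3) and 4 were lower (Psat1, Phgdh, Mthfd2 and Ddit3) in chow than in DIO-MASH vehicle mice, and 4 were not called. In this comparison 55.4% of all genes were called, 26.5% higher and 28.9% lower, so that the share of called targets is near the background. The median log2 fold change of the 10 targets was -0.32, against -0.0072 over all genes. In the combination none was higher, 3 were lower (Psat1, Mthfd2 and Asns) and 7 were not called, with 20.9% of all genes called, 10% higher and 10.9% lower. The medians were -0.36 and -0.03. At high-dose zalfermin the same counts were found, none higher, 3 lower (Psat1, Mthfd2 and Asns) and 7 not called, with 17.2% of all genes called, 8.54% higher and 8.68% lower, and medians of -0.26 and -0.02. These comparisons share the 8 vehicle mice and are not independent of one another.

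No target was called at low-dose zalfermin (0.468% of all genes called), low-dose semaglutide (0%) or high-dose semaglutide (2.43%). By an unadjusted p under 0.05, 11.3% of all genes passed at low-dose zalfermin, 8.66% at low-dose semaglutide and 16.9% at high-dose semaglutide. At low-dose zalfermin, Psat1, Mthfd2, Asns and Phgdh were under this mark, with log2 fold changes of -1.26, -0.96, -1.04 and -1.37. At high-dose semaglutide, Psat1 (-0.76) and Mthfd2 (-0.81) were, and at low-dose semaglutide none of the 10 was. At low-dose semaglutide DESeq2 called 31 genes where edgeR called 0, none of them a target. Without low-dose semaglutide mouse 6, DESeq2 called 0 genes there. Between the 2 high doses, zalfermin against semaglutide, no target was called and 0.447% of all genes were. In this direct contrast Psat1 differed by -0.91 (CI -1.64 to -0.17, adjusted p = 0.335, edgeR) and Asns by -1.47 (CI -2.60 to -0.34, adjusted p = 0.284, edgeR). Of the 10 targets, 5 had a log2 fold change above 0 and 5 below 0. Against vehicle, the interval of Psat1 was -2.39 to -0.94 at high-dose zalfermin and -1.43 to -0.09 at high-dose semaglutide.

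**Figure D3:**
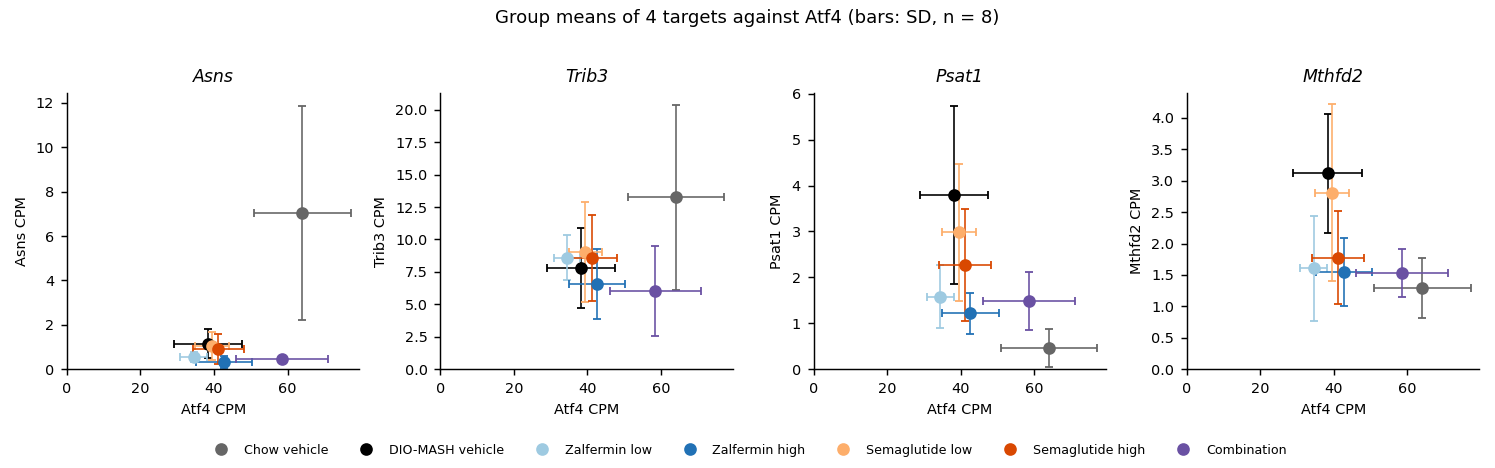
Group means of Asns, Trib3, Psat1 and Mthfd2 in CPM on the vertical axes against the group mean of Atf4 in CPM on the horizontal axes, with bars of 1 SD over 8 mice and 1 colour per group. Chow (Atf4 64.1 CPM) and the combination (58.5 CPM) lie close together in Atf4 but apart in Asns, at 7.02 and 0.435 CPM.

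Markers of cell types differed in the same comparisons. Beside the counts below, 26.5% of all genes were higher and 28.9% lower in chow. The shares were 10% and 10.9% in the combination, and 8.54% and 8.68% at high-dose zalfermin. No marker list was tested against them. In chow, 8 of 8 hepatocyte markers were called higher than in DIO-MASH vehicle mice (summed level 153072 to 239364 against 63389.7 to 86068.3 CPM). At the same time, 7 of 8 macrophage markers (82.4 to 397 against 459.6 to 718 CPM) and 6 of 6 proliferation markers (2.77 to 17.7 against 23 to 47.2 CPM) were lower, as were 6 of 8 stellate cell and fibroblast markers (44.9 to 162 against 525 to 1080 CPM), 8 of 8 T and B cell markers (2.61 to 12.7 against 5.21 to 45 CPM) and 3 of 6 cholangiocyte markers (32.2 to 292 against 192 to 590 CPM). Of 8 endothelial markers 1 was higher and 4 were lower (184 to 281 against 202 to 285 CPM). In the combination, 7 of 8 hepatocyte markers were higher (89397.7 to 138192 CPM) and 6 of 6 proliferation markers lower (4.32 to 22.3 CPM), while 4 of 8 stellate cell and fibroblast markers were lower (117 to 397 CPM) and 1 of 8 macrophage markers was higher and 1 lower (268 to 773 CPM). Of the endothelial, cholangiocyte and T and B cell markers, 1 of each list was lower. At high-dose zalfermin, 8 of 8 hepatocyte markers were higher (85969.8 to 139715 CPM), and 6 of 6 proliferation markers (7.69 to 26.7 CPM) and 2 of 8 stellate cell markers (132 to 354 CPM) were lower. Of 8 macrophage markers 1 was higher and 2 were lower there (376 to 553 CPM). None of the markers was at 0 in all mice of a group. In whole liver, fewer cells of a type and less RNA per cell cannot be told apart, and the part of these markers in the results for Asns, Psat1 and Mthfd2 was not tested.

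The mice carry numbers in the labels that form 4 separate runs, here series A to D, of 22, 15, 16 and 3 mice. What these runs stand for is not stated. Within series A, B and C, Psat1 was lower in chow than in DIO-MASH vehicle mice by a difference of mean log2 CPM of -2.85, -4.25 and -2.20, and Asns was higher by 1.17, 3.08 and 3.13. Atf4 was higher in chow by 0.53, 1.0 and 0.58, and Mthfd2 differed by -1.82, -0.87 and -0.75. Trib3 differed by 0.81, -0.43 and 0.63, so that its direction did not hold in series B, which has 1 chow mouse. Ddit3 differed by -0.99, -0.87 and -0.24.

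For the combination, the differences within series A, B and C were 0.47, 1.10 and 0.28 in Atf4, -1.77, -1.60 and -0.35 in Psat1, and -1.47, -0.74 and -0.31 in Mthfd2. Asns differed by -1.52, -0.96 and -0.52. For high-dose zalfermin, Psat1 differed by -2.10, -1.39 and -0.81, Mthfd2 by -1.10, -0.90 and -0.83, and Asns by -1.92, -0.75 and -2.02. All of these kept the direction found over all mice. Each of the 3 series holds 1 to 4 mice of a group, and these differences within a series were not tested.

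Whether targets and Atf4 moved together from mouse to mouse was examined within groups, by subtracting each group's mean from log2 CPM over all 56 mice. Of 10 correlations with Atf4, Sesn2 alone passed the adjusted threshold by Pearson's r though not by Spearman's rho, and it was negative, with r = -0.44 (permutation p = 0.00258, adjusted 0.0258) and rho = -0.39 (permutation p = 0.00754, adjusted 0.0754). Without the 2 mice farthest in Atf4, r stayed at -0.44. Within series A, B and C it was -0.35, 0.28 and -0.47, so that it did not hold in series B. Ddit3 was positively correlated with Atf4, with r = 0.33 and rho = 0.30, but did not pass (permutation p = 0.0242, adjusted 0.121). Asns had an r of -0.03, Psat1 of -0.18 and Mthfd2 of -0.15 with Atf4, and none passed.

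Among the targets themselves, 4 of 45 pairs passed by Pearson's r. Psat1 and Mthfd2 were the most strongly correlated, with r = 0.56 (permutation p = 3e-05, adjusted 0.00135) and rho = 0.57 (permutation p = 2e-05, adjusted 0.0009), and r was 0.62 without the 2 farthest mice. Within series A, B and C their r was 0.63, 0.84 and -0.06, so that the relation did not hold in series C. Trib3 and Sesn2 had an r of 0.53 and a rho of 0.42 (adjusted permutation p = 0.0117 and 0.0456), but r was 0.31 without the 2 farthest mice and no longer passed (adjusted 0.162). Within series A, B and C their r was 0.23, 0.25 and 0.64. Psat1 and Phgdh had an r of 0.46 (adjusted permutation p = 0.0117), which was 0.42 without the 2 farthest mice (adjusted 0.0540) and 0.28, 0.62 and 0.42 within the 3 series. Asns and Aldh1l2 had an r of 0.35 (adjusted permutation p = 0.0237), which was 0.35 without the 2 farthest mice (adjusted 0.0588) and 0.41, 0.47 and 0.35 within the 3 series.

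**Figure D4:**
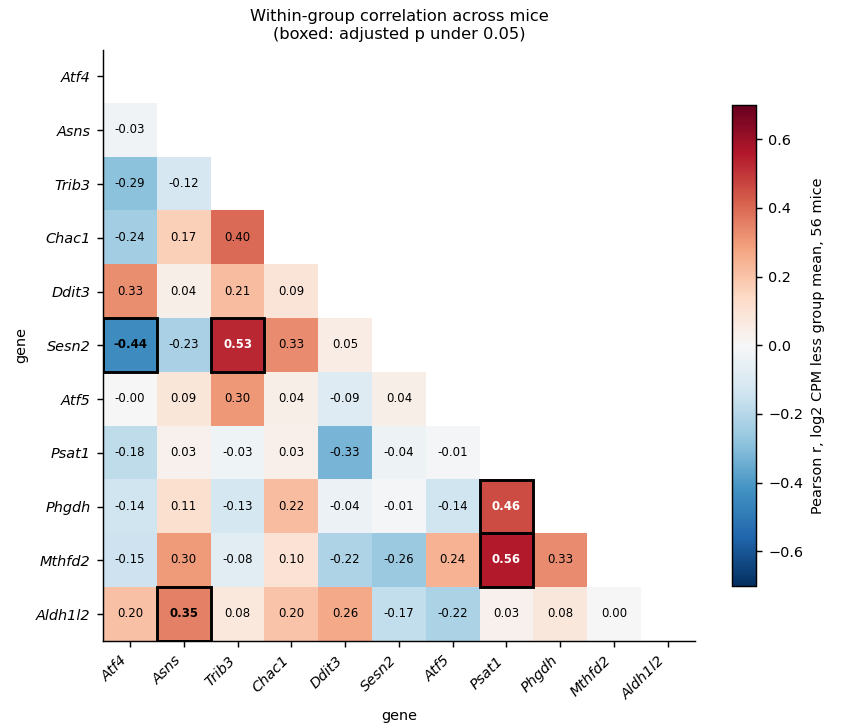
Pearson correlations over 56 mice between Atf4 and the 10 targets, computed on log2 CPM with group means subtracted, on a blue to red colour scale, with black boxes around those with an adjusted p under 0.05. The strongest is that of Psat1 with Mthfd2 (0.56), and Sesn2 is the target most strongly related to Atf4 (-0.44).

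Upstream of ATF4 stand the 4 kinases of eIF2alpha. Of these, Eif2ak1, the haem-sensing kinase, was 0.37 higher in chow (adjusted p = 0.000146, edgeR) and Eif2ak2, the kinase activated by double-stranded RNA, was 0.48 lower (log2 fold change -0.48, adjusted p = 7.35e-05, edgeR). Eif2ak3 (PERK) and Eif2ak4 (GCN2), the sensors of unfolded protein and of amino acid shortage, had log2 fold changes of -0.16 and 0.03 in chow and were not called. In the combination Eif2ak2 fell by 0.28 (adjusted p = 0.0373, edgeR), and at high-dose zalfermin Eif2ak3 fell by 0.51 (adjusted p = 0.0150, edgeR). A list of 9 genes covered the eIF2alpha phosphatase, eIF2alpha itself and eIF2B, the factor that recharges eIF2. Of these, 6 were higher in chow (26.5% of all genes) and 1 in the combination (10%). The latter was Ppp1r15b, the constitutive phosphatase subunit, at 0.62 in chow and 0.43 in the combination.

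Other known targets and relatives of ATF4 were counted from lists chosen by function. The counts stand beside a background of 26.5% of all genes higher and 28.9% lower in chow, 10% higher and 10.9% lower in the combination, and 8.54% higher and 8.68% lower at high-dose zalfermin, and no list was tested against it. Of 10 further stress targets, 2 were higher and 7 lower in chow, with a median log2 fold change of -1.64 over the list. Those lower in chow included Cdkn1a (-2.68), an inhibitor of the cell cycle, Stc2 (-2.40), a secreted glycoprotein, Fgf21 (-1.81), the hormone that zalfermin mimics, and Nupr1 (-1.77), a stress-induced chromatin protein. In the combination 2 were lower and Nupr1 (-1.06) was among them, while Vldlr, a lipoprotein receptor, was the 1 that was higher (0.55). At high-dose zalfermin 2 were higher and 5 lower.

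Of 9 other genes of serine, one-carbon, proline and related amino acid metabolism, 4 were higher and 4 lower in chow (26.5% and 28.9% of all genes). In the combination 3 were higher and 3 lower (10% and 10.9%). At low-dose zalfermin 4 were higher and 0 lower, where 0.468% of all genes were called. At high-dose zalfermin 4 were higher and 2 lower (8.54% and 8.68%). High-dose semaglutide had 2 higher and 0 lower, with 2.43% of all genes called, and low-dose semaglutide had 0 called. The mitochondrial Mthfd1l, which acts in the same folate pathway as Mthfd2, fell by 1.44 in chow and by 1.12 in the combination. The cytosolic Mthfd1 was higher in both, by 0.84 and 0.48, as was Cth, which makes cysteine from cystathionine, by 2.12 and 0.90. Aldh18a1, the first enzyme of proline synthesis, fell by 0.90 in chow. Shmt1, the cytosolic enzyme that converts serine and glycine, was 0.63 higher in the combination.

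Of 8 amino acid transporters tested, 2 were higher and 4 lower in chow (26.5% and 28.9% of all genes), and 1 was higher and 2 were lower in the combination. Slc38a2, a carrier of small neutral amino acids, was higher in both, by 1.18 and 0.62. Slc7a1, a carrier of cationic amino acids, fell in both, by 1.61 and 0.80. Of 13 genes of tRNA charging and tRNA export, 6 were higher and 1 lower in chow, and 3 were higher in the combination. The latter were Tars (0.80), Yars (0.34) and Aars (0.32), the synthetases for threonine, tyrosine and alanine, whereas at high-dose zalfermin none was higher and 4 were lower. Aars was also higher in chow (0.51), and Wars, the synthetase for tryptophan, was lower there (-0.38).

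Among 8 partners and relatives of ATF4, 2 were higher and 3 lower in chow (26.5% and 28.9% of all genes). Atf3, a stress-induced repressor, fell by 2.21, Jdp2, a related repressor, by 1.18 and Nfe2l2, the regulator of the antioxidant response, by 0.66, while Cebpa, a hepatocyte transcription factor, was 0.47 higher. Cebpg, a known dimer partner of ATF4, was 0.40 higher in the combination and the only one of the 8 called there. Of 15 genes of the ATF6 and XBP1 branches of the unfolded protein response, 8 were higher and none lower in chow, with a median of 0.30. In the combination 5 were higher and none lower, among them Hspa5 (0.49), the main chaperone of the endoplasmic reticulum, and Ern1 (0.47), the sensor that splices Xbp1. At high-dose zalfermin 1 of the 15 was higher.

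**Figure D5:**
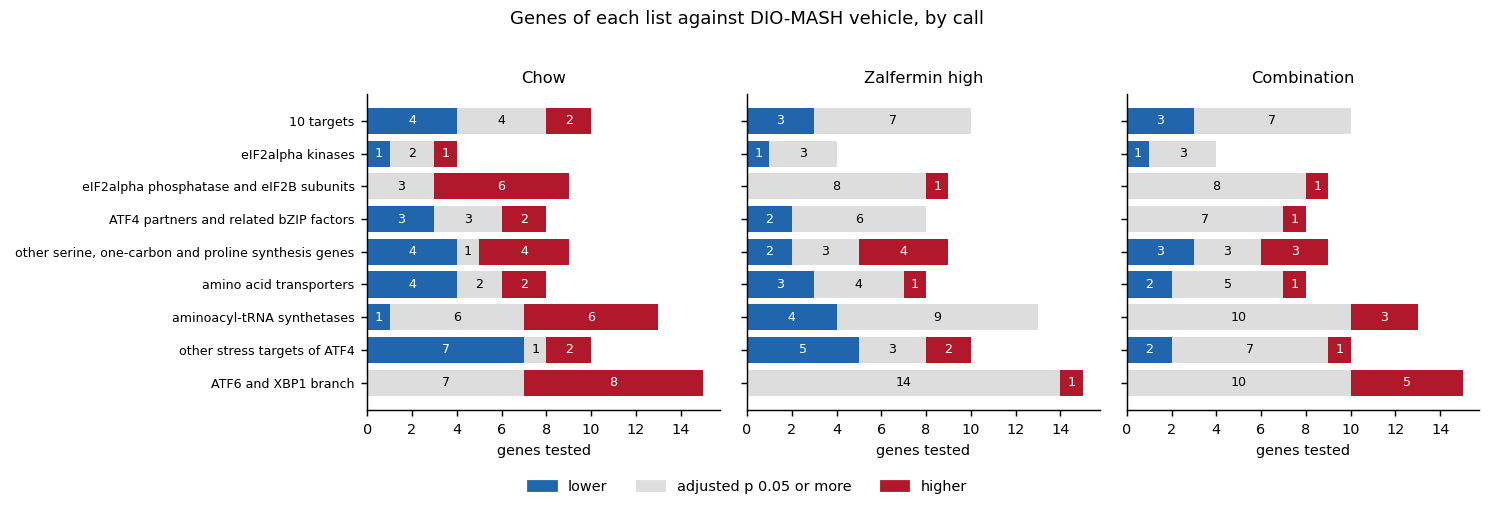
Number of tested genes of the 10 targets and of each functional list that were lower, not called or higher than in DIO-MASH vehicle mice in chow, at high-dose zalfermin and in the combination, as stacked bars with the counts printed. In chow, 7 of the 10 further stress targets were lower, whereas 8 of the 15 ATF6 and XBP1 genes were higher and none lower, where 28.9% of all genes were lower and 26.5% higher.

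The log2 CPM of the 10 targets, with each group's mean subtracted, were standardized and averaged, so that differences between groups were removed. Other genes with an average of at least 1 CPM, treated the same way, were correlated with this target average over all 56 mice. The most similar were Tmem140 (r = 0.59), Lmnb1 (0.57), Pip4p1 (0.57), H2-DMb2 (0.57) and 4930523C07Rik (0.56). Atf4 had an r of -0.23 with the target average and ranked 10617 of 11867 genes. Both values of each mouse were read from the same library, and no test was attached to these correlations.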

How the data were processed

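The members and the gene lists were chosen with earlier results of these data known. Polyadenylated liver RNA of 56 mice was sequenced as stranded libraries. The deposited file holds the authors' raw counts per gene, 1 column per mouse. The study's methods give alignment with STAR to GRCm38 with Ensembl annotation, whereas the submitters' processing notes name Trim Galore 0.6.4 and Salmon 1.9.0. The counting program and its use of strand are not given in the sources used here, so reads of overlapping genes cannot be told apart by strand. The study left out 1 low-dose semaglutide mouse that the labels do not mark, and all 56 were kept.

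Genes with at least 5 reads in at least 3 mice were kept. Counts were normalized by TMM and fitted over all 7 groups with edgeR 4.0.16 (glmQLFit, glmQLFTest) in R 4.3.3. The biological coefficient of variation was 22.6%. CPM were computed from the normalized library sizes, and log2 CPM used a prior count of 2. A low-dose interaction was the combination minus both single low doses plus vehicle. Correlations were tested with 100000 permutations, for which the smallest p is 1e-05, in Python 3.11.15 with SciPy 1.17.1. The GRCm38 gene models gave exon lengths. Every pair of libraries of a group differed by more than sampling noise (smallest chi-square per degree of freedom 7.57). Nothing in the labels says how cage or litter were shared. The fit was tested on simulated data. Replicate numbers were given in accession order and pair no mice. Alternatives were DESeq2 1.42.0, other size factors, other filters, the number series as covariate, fits of the compared groups only, each mouse left out in turn, and 2 more chosen after seeing the data, which left out chow mouse 8 and low-dose semaglutide mouse 6 or ran DESeq2 without the latter. Named genes were the 10 targets and Atf4 with, for each list, the kinases in full and otherwise up to 4 called genes of largest change with a mean level of at least 1 CPM. Intervals cover the spread between mice only.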

Additional observations from a re-analysis of the deposited data

Results flagged for a closer look

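Single mice far from the other 7 of their group were found by Dixon's criterion, the gap to the nearest mouse divided by the range, in 7 of 77 sets of 1 gene in 1 group. Chance alone flags about 1 in 20 such sets where values are normally distributed. CPM of genes with few reads need not be, so the 7 flags cannot be set against that rate. Psat1 in high-dose semaglutide mouse 5 was at 5.14 CPM with the next at 2.32 CPM (ratio 0.724). Chac1 was at 16.8 CPM in combination mouse 3 with the next at 7.02 CPM (ratio 0.617), and at 11.3 CPM in DIO-MASH vehicle mouse 4 with the next at 6.06 CPM (ratio 0.576). Trib3 was at 12.3 CPM in high-dose zalfermin mouse 2 with the next at 7.29 CPM (ratio 0.583). Phgdh in low-dose semaglutide mouse 2 was at 1.43 CPM with the next at 0.714 CPM (ratio 0.547). Aldh1l2 was at 1.54 CPM in combination mouse 3 with the next at 0.709 CPM (ratio 0.540), and at 0 in low-dose zalfermin mouse 5 with the next at 0.204 CPM (ratio 0.546). Combination mouse 3 was thus the highest of its group in both Chac1 and Aldh1l2.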

How the results depend on the processing

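Over 132 differences (the 10 targets and Atf4 in 12 comparisons), 19 were called, and all 19 kept their direction in every alternative. Another 32, none of them called and none above 0.45 in size, changed sign in some alternative. Atf4, Psat1 and Mthfd2 in chow and in the combination, Asns in chow, and Psat1, Mthfd2 and Asns at high-dose zalfermin kept their calls without each of the 56 mice in turn. The labels give the groups no shared replicate numbers, so mice were not paired, and the number series as covariate was the only block fitted. Besides the calls lost without single mice that are given above, Trib3 in chow lost its call with the number series as covariate (adjusted p = 0.0785, edgeR), when only the compared groups were fitted (0.106) and without chow mouse 8 and low-dose semaglutide mouse 6 (0.0867). Ddit3 in chow lost its call in the latter 2 settings (0.0766 and 0.0763), Asns in the combination without a filter (0.0513), and Trib3 between combination and chow when only those groups were fitted (0.0641). Sesn2 in chow was called without chow mouse 2 (-0.41, 0.0426), and Phgdh in the combination without vehicle mouse 5 (0.0475) or combination mouse 2 (0.0486). Among the list genes named in the combination, Eif2ak2 lost its call without 12 of the 56 mice, Vldlr without 10, Aars and Ern1 without 8 each, Hspa5 without 6, Slc7a1 without 4 and Slc38a2 without 2.

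The count of called genes among the targets and Atf4 at low-dose zalfermin was 0, 1 without the 2 mice, 2 by DESeq2 without low-dose semaglutide mouse 6, and 0 to 1 with single mice left out, and these genes were Psat1 and, by DESeq2, also Mthfd2. Between combination and low-dose semaglutide it was 1, 2 by DESeq2 (Mthfd2 added, adjusted p = 0.0402), 3 without the 2 mice, 3 by DESeq2 without mouse 6, and 1 to 3 with single mice left out. Between combination and high-dose zalfermin it was 0, 1 by DESeq2 with or without mouse 6 (Atf4, 0.0379 and 0.0346), and 0 to 1 with single mice left out. For the interaction it was 0, and 1 by DESeq2 without mouse 6 (Atf4, 0.0380). Of the correlations with Atf4, 1 passed, and 2 passed with the number series subtracted (Ddit3 added, r = 0.40, adjusted 0.0312). The r of Atf5 with Atf4 was -0.0023 and turned to 0.015 with DESeq2's size factors and to 0.016 without the 2 farthest mice. Of the target pairs, 4 passed and 1 without the 2 farthest mice.

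Over all genes, the number called at low-dose zalfermin was 66, and 123 to 225 in 6 alternatives. At low-dose semaglutide it was 0, 31 by DESeq2, and 0 by DESeq2 without low-dose semaglutide mouse 6. At high-dose semaglutide it was 343, and 516 to 653 in 3 alternatives. For combination against low-dose semaglutide it was 594 and 298 to 1370, against high-dose zalfermin 71 and 16 to 181, for the high doses against each other 63 and 119 to 199, and for the interaction 2 and 1 to 17. Phgdh and Aldh1l2 had the fewest reads of the targets, and Aldh1l2 was not tested with 10 reads in 8 mice required.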
